A study of Mus musculus with 6 samples.

Results

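The aryl hydrocarbon receptor battery described here is a set of 8 mouse genes: the receptor gene Ahr, its partner gene Arnt, its repressor gene Ahrr, and the target genes Cyp1a1, Cyp1b1, Tiparp, Nqo1 and Aldh3a1. They were taken by gene name from a deposited table of 49315 genes, where each name had 1 row. The set was chosen by pathway knowledge after earlier results from these same libraries, among them the levels of Cyp1a1, were known. The differences between genotypes given for its members are therefore a description and support no claim about the set. RNA came from mouse embryonic fibroblasts, a mixed mesenchymal population, isolated from embryos at E13.5 and cultured for 2 days at passage 0. The 2 groups had 3 libraries each: Acvr1+/+ cells, called wild type, and Acvr1R206H/+ cells, called R206H, with 1 mutant copy of a bone morphogenetic protein receptor gene that underlies fibrodysplasia ossificans progressiva, in which bone forms in soft tissue. The labels call the libraries biological replicates and do not say whether each came from 1 embryo, so p-values measure the spread between these cultures.

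The aryl hydrocarbon receptor is a ligand-activated transcription factor. Unliganded, it is held in the cytoplasm by heat shock protein 90 and co-chaperones. With a ligand, such as a planar aromatic pollutant or a tryptophan metabolite, it enters the nucleus, pairs with ARNT and binds xenobiotic response elements next to its targets. Those targets include enzymes that oxidize or conjugate the ligands, and the genes of the feedback inhibitors AHRR and TIPARP.

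Of the 8 members, 6 matched a promoter in the RefSeq table (GRCm38.p6). Each window of 300 bases, from 250 before the start to 50 after it, was searched on both strands for the core GCGTG of the xenobiotic response element, its longer form TNGCGTG, which contains the core, and the antioxidant response element TGACNNNGC. At least 1 core was found in 5 of the 6 windows, against 32.4% of 32851 promoter windows of this length. G and C made up 53.7% to 73.7% of the bases in the 6 windows, at percentiles 53.5 to 95.2 of all windows. The shares over all windows were not matched for this. Ahrr had 3 cores, and 3.91% of all windows had 3 or more. It alone had the longer form, which 5.07% of windows hold. Cyp1a1, Cyp1b1, Arnt and Tiparp had 1 core each and Nqo1 had 0. The antioxidant element was matched 2 times for Arnt and 0 times for the other 5, against 12.4% of windows with a match. The upstream parts of 4 windows are shown, 5′ to 3′ in the direction of the gene, with the core in capitals. They are the 2 members called lower below, Cyp1a1 and Tiparp, and 2 targets with the core whose groups overlapped, Cyp1b1 and Ahrr.
Cyp1a1: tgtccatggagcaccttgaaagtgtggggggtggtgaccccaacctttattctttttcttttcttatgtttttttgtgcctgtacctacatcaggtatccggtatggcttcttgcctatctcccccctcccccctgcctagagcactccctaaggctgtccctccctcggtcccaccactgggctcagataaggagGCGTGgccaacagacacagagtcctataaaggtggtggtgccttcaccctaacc
Tiparp: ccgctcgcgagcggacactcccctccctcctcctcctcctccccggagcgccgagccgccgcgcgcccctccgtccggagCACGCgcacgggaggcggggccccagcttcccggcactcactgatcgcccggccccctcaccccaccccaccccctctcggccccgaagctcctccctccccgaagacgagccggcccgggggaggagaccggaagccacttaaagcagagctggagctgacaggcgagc
Cyp1b1: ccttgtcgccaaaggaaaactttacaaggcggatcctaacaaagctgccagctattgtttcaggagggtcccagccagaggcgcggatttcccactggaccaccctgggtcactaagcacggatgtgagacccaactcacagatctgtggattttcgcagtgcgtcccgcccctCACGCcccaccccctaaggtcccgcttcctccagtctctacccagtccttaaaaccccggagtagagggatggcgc
Ahrr: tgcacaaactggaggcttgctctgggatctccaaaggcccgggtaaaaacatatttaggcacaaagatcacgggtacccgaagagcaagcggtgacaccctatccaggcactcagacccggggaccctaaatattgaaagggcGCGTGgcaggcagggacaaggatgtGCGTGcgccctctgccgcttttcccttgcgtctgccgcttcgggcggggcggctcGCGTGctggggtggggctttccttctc
These stretches lie at chr9:57697363-57697612, plus strand, at chr3:65528197-65528446, plus strand, at chr17:79715062-79715311, minus strand, and at chr13:74292332-74292581, minus strand. The starts are those of RefSeq and can differ from the gene spans given below, which are those of GENCODE. The Cyp1a1 stretch lies inside its GENCODE span, which begins at 57687928. The Tiparp stretch ends inside its own, which begins at 65528410. In Cyp1a1 the core reads in the direction of the gene with its first base 54 bases before the start. In Tiparp and Cyp1b1 it lies on the opposite strand (CACGC as printed), with its first printed base 170 and 76 bases before the start. The 3 cores of Ahrr begin 107, 82 and 27 bases before the start. A match is a string of letters in this window and not a measured binding site, and the core was present both in members called lower and in members that were not called.

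**Figure D1:**
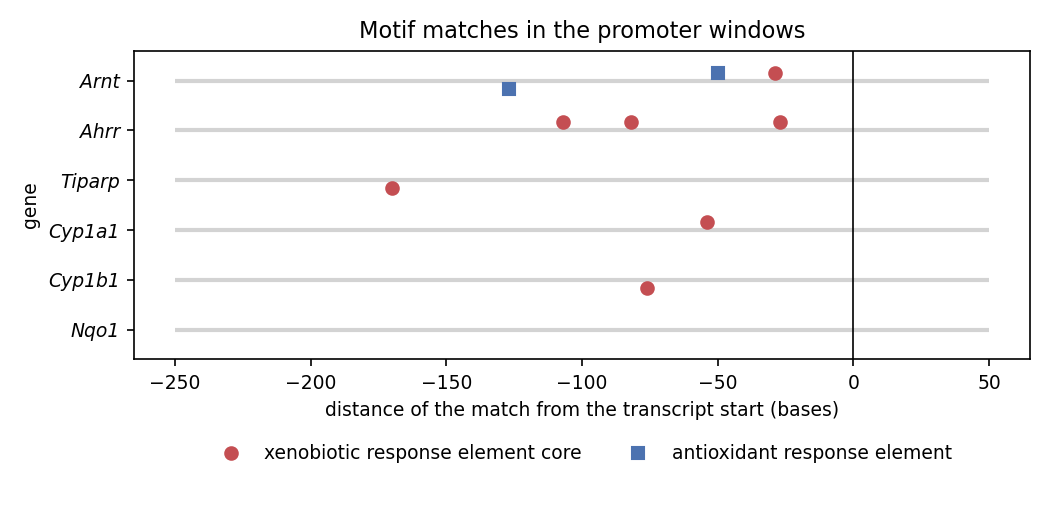
Matches of the xenobiotic response element core and the antioxidant response element in the promoter windows of 6 members, by distance from the start in bases. Marks above a line are on the gene's strand and marks below it on the other; Ahrr carries 3 cores and Nqo1 no match.

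Values are TPM, transcripts per 1000000, which are scaled by gene length and so allow levels to be compared between genes. The libraries held an estimated 17500000 to 24600000 reads. Differences are given as R206H minus wild type in log2(TPM + 1), a scale that compresses changes at low levels, with tests by limma across 14818 genes that reached 1 TPM in at least 3 libraries. A gene is called here at a Benjamini-Hochberg adjusted p under 0.05. SDs have n = 3 per genotype. All 11 fibroblast markers checked were tested and their summed level was 5787 to 7579 TPM in wild type and 9107 to 11740 in R206H. Most of this sum was Col1a1, with means of 2214 TPM in wild type and 4881 in R206H, and Vim, with 3203 and 3117. Of the 11 log2 differences 10 were positive and 1, that of Vim (-0.03), was negative. On the second principal component wild-type library 1 stood apart, at -34.1 against -4.8 to 16.3 in the other 5.

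Among the 8 battery genes, 7 passed the filter and Aldh3a1 did not. Of the 7, Ahr was called higher, against 1.26% of all genes tested, and Cyp1a1 and Tiparp were called lower, against 0.79% of all genes tested. Because the set was chosen with earlier results of these libraries known, nothing is read from these counts. In 4 of the 7, Ahr, Arnt, Cyp1a1 and Tiparp, the ranges of the genotypes were separate, against 32.9% of all genes tested. The median log2 difference of the 7 was -0.20, beside 0.02 over all genes tested. Cyp1a1 passed the filter through the 3 wild-type libraries and R206H library 1. None of the 7 members was called once library 2 or library 3 of either genotype was left out. Without wild-type library 1 the same 3 were called, and without R206H library 1 these and Arnt.

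Ahr encodes the receptor itself (ENSMUSG00000019256, chromosome 12, 35497974 to 35535038, minus strand, GRCm38). It was measured at 20.3, 18.1 and 15.7 TPM in wild-type libraries 1, 2 and 3 and at 26.3, 27.7 and 32.3 TPM in R206H libraries 1, 2 and 3. Every R206H library lay above every wild-type library, and R206H library 3 was the highest. The mean rose from 18 ± 2.29 to 28.8 ± 3.12 TPM (SD, n = 3), 1.6 times the wild-type level (log2 difference 0.65, SE 0.118, limma adjusted p = 0.0483). A stretch of 127 nt of its exons overlaps the gene model Gm48236 on the opposite strand, and the strand setting of the counting is not given in the sources used here.

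Arnt encodes the partner that Ahr needs in order to bind DNA, a protein also shared with the hypoxia-inducible factors (ENSMUSG00000015522, chromosome 3, 95434388 to 95497240). Wild-type libraries 1, 2 and 3 had 27.2, 25.2 and 22.8 TPM and R206H libraries 1, 2 and 3 had 28.7, 35.8 and 37 TPM. The groups did not overlap, but R206H library 1 lay close to wild-type library 1. The log2 difference was 0.41 with a 95% interval of 0.14 to 0.68, which did not pass over all genes (limma adjusted p = 0.088). Without R206H library 1 it did (log2 0.52, adjusted p = 0.042).

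Ahrr encodes the repressor that competes with Ahr for ARNT (ENSMUSG00000021575, chromosome 13, 74211118 to 74292331). Its levels were 4.64, 7.88 and 7.96 TPM in wild-type libraries 1, 2 and 3 and 5.45, 5.04 and 8.04 TPM in R206H libraries 1, 2 and 3. Each genotype had values near 5 and near 8, so the groups overlapped. The log2 difference of -0.12 did not pass (95% interval -0.67 to 0.44, limma adjusted p = 0.794).

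Tiparp encodes a mono-ADP-ribosyltransferase that dampens the receptor and is itself among its targets (ENSMUSG00000034640, chromosome 3, 65528410 to 65555518, plus strand). Wild-type libraries 1, 2 and 3 had 36.9, 45.8 and 47.4 TPM and R206H libraries 1, 2 and 3 had 25.7, 27.7 and 20.6 TPM. All R206H values lay below all wild-type values, with a gap of several TPM between wild-type library 1 and R206H library 2. The mean fell from 43.4 ± 5.67 to 24.7 ± 3.67 TPM (SD, n = 3; log2 difference -0.79, SE 0.137, limma adjusted p = 0.0476). Its exons share 223 nt with 4931440P22Rik on the opposite strand, which had 0.54 to 1.85 TPM across the libraries. Tiparp and Ahr changed places in the order of levels: Tiparp was above Ahr in 3 of 3 wild-type libraries and in 0 of 3 R206H libraries, although in R206H libraries 1 and 2 both genes were near the same level.

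Cyp1a1 encodes the cytochrome P450 enzyme that is the classical readout of the receptor's activity (ENSMUSG00000032315, chromosome 9, 57687928 to 57703824, plus strand). It stood at 9.81, 4.51 and 8.02 TPM in wild-type libraries 1, 2 and 3 and at 1.1, 0.0753 and 0.316 TPM in R206H libraries 1, 2 and 3. The lowest wild-type library was still well above the highest R206H library, R206H library 1. Behind these values lay an estimated 129, 85 and 139 reads in wild type and 18, 1 and 5 reads in R206H, and for each library TPM times exon length came within 0.05 of a whole number of reads. Counting error alone, as an exact 95% Poisson interval, spans 0.654 to 1.75 TPM in R206H library 1, 0.00191 to 0.42 in library 2 and 0.102 to 0.736 in library 3. The mean fell from 7.45 ± 2.7 to 0.498 ± 0.538 TPM (SD, n = 3; log2 difference -2.50, 95% interval -3.30 to -1.70, limma adjusted p = 0.0417). The wild-type mean was 14.9 times the R206H mean. With 1 library left out the ratio ranged from 10.5, without R206H library 2, to 38.1, without R206H library 1, which holds most of the mutant reads.

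Cyp1b1, the other CYP1 enzyme of mesenchymal cells, is also induced through the receptor (ENSMUSG00000024087, chromosome 17, 79701537 to 79715061). It was the most abundant member, at 243.2, 168.8 and 181.4 TPM in wild-type libraries 1, 2 and 3 and 210.1, 170.3 and 137.3 TPM in R206H libraries 1, 2 and 3. The groups overlapped widely, and library 1 was the highest of each genotype. The log2 difference of -0.20 did not pass (95% interval -0.63 to 0.24, limma adjusted p = 0.538). The intervals for Cyp1a1 and Cyp1b1 do not overlap, but a difference between the 2 genes was not tested. The neighbour of Cyp1a1 in the same family, Cyp1a2, was listed at 0.105 TPM in wild-type library 1 and at 0 in the other 5 libraries.

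Nqo1 encodes a quinone reductase driven both by the receptor and by NRF2, the transcription factor of the oxidant response (ENSMUSG00000003849, chromosome 8, 107388225 to 107403206). It had 174.7, 121.6 and 207.5 TPM in wild-type libraries 1, 2 and 3 and 124.1, 55 and 88.1 TPM in R206H libraries 1, 2 and 3. R206H library 1 lay just above wild-type library 2, so the groups overlapped, and R206H library 2 was the lowest, as it was for Cyp1a1. The mean was 167.9 ± 43.3 TPM in wild type and 89.1 ± 34.5 in R206H. The log2 difference of -0.95 did not pass (SE 0.308, 95% interval -1.67 to -0.22, limma adjusted p = 0.118).

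Aldh3a1 encodes an aldehyde dehydrogenase that is abundant in some epithelia and inducible through the receptor (ENSMUSG00000019102, chromosome 11, 61207537 to 61218421). It was at 0.764, 0.381 and 0.662 TPM in wild-type libraries 1, 2 and 3 and at 0.088, 0 and 0.362 TPM in R206H libraries 1, 2 and 3. The groups did not overlap, but the lowest wild-type value and the highest R206H value were nearly equal. These values rest on an estimated 20 reads in all wild-type libraries and 5 in all R206H libraries. For the 0 in R206H library 2 the exact 95% Poisson interval reaches 0.399 TPM, above the lowest wild-type value. Under 1 TPM in every library, Aldh3a1 was not tested.

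**Figure D2:**
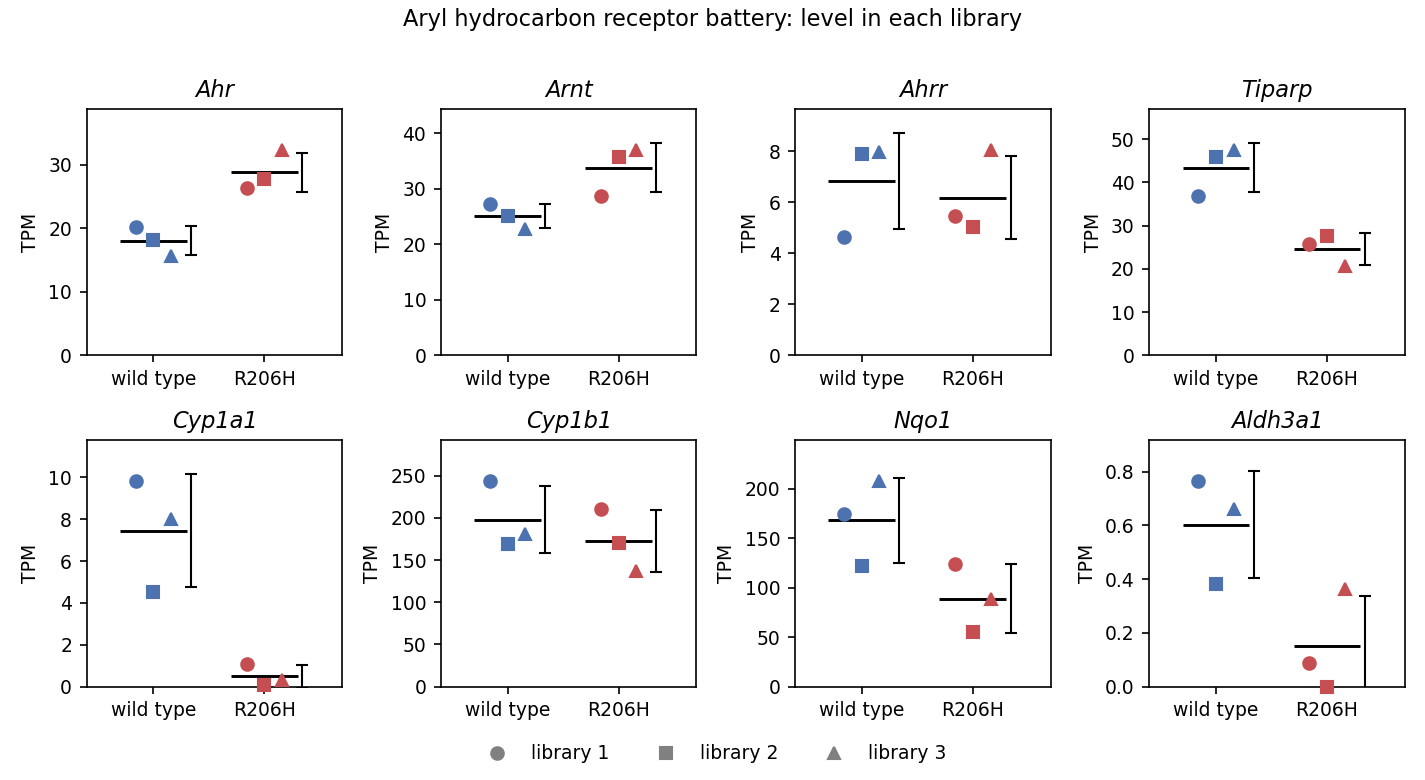
TPM of the 8 battery genes in each library, wild type in blue and R206H in red, with the mean as a line and the SD (n = 3) as a bar, which is cut at 0 for Cyp1a1 and Aldh3a1. Ahr and Arnt lie higher in every R206H library, Tiparp, Cyp1a1 and Aldh3a1 lower, and Ahrr, Cyp1b1 and Nqo1 overlap.

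By level in wild type, the order was Cyp1b1 (mean 197.8 TPM), Nqo1, Tiparp, Arnt, Ahr, Cyp1a1, Ahrr and Aldh3a1. The ranges of Cyp1b1 and Nqo1 overlapped there, as did those of Cyp1a1 and Ahrr. In R206H the order was Cyp1b1 (172.6 TPM), Nqo1, Arnt, Ahr, Tiparp, Ahrr, Cyp1a1 and Aldh3a1. Here Cyp1b1 lay apart from Nqo1, the ranges of Arnt and Ahr overlapped, as did those of Ahr and Tiparp, and Cyp1a1 and Aldh3a1 overlapped near 0. The spread within a genotype also differed between members. In R206H the SD was 125.9% of the mean for Aldh3a1, 108% for Cyp1a1 and 38.8% for Nqo1. For Ahr it was 10.9% and for Tiparp 14.9%. The Aldh3a1 and Cyp1a1 values rest on an estimated 5 and 24 reads in all R206H libraries. The share of counting error in these spreads was not tested.

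**Figure D3:**
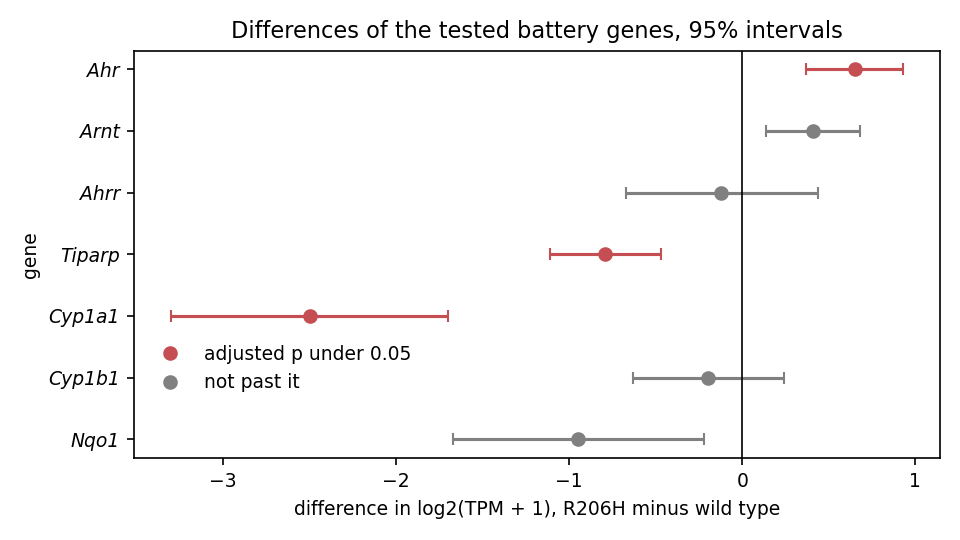
Differences in log2(TPM + 1), R206H minus wild type, for the 7 tested members with 95% limma intervals, red where the adjusted p was under 0.05. Cyp1a1 has the largest difference of the 7, -2.50, and the intervals of Ahrr and Cyp1b1 cross 0.

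limma voom on read counts rebuilt from TPM, which weights genes by their reads, called 4 of the 7 members, against 8.68% of 14785 genes. These were the 3 above and Arnt (log2 0.40, voom adjusted p = 0.0483). Cyp1a1 had a voom log2 difference of -4.24, larger than on the log2(TPM + 1) scale because no 1 is added to its low values. For Ahrr and Cyp1b1 the rebuilt reads were not whole, so their counts are approximate.

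Pathway lists put the battery beside its neighbours. In the list of the receptor's chaperones, partners and coactivators, 0 of 15 tested genes were called by limma in either direction, 4 had an unadjusted p under 0.05, against 26.1% of all genes tested, and the median log2 difference was 0.03. voom called 2 of the 15 lower, against 8.68% of all genes called by voom in either direction. Those were Hsp90aa1, the inducible heat shock protein 90 gene, at 982.1 ± 49.2 TPM in wild type and 741 ± 86.3 in R206H (log2 -0.41, limma adjusted p = 0.0647), and Ptges3, the co-chaperone p23, at 271.6 ± 2.45 and 228.6 ± 17.4 (log2 -0.25, limma adjusted p = 0.0779).

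Among other xenobiotic enzymes and receptor targets, 0 of 14 tested genes were called by limma, 6 had an unadjusted p under 0.05, against 26.1% of all genes tested, and the median was 0.10, with 10 positive and 4 negative values. Por, the reductase that passes electrons to all microsomal P450 enzymes, had 179.8 ± 4.44 TPM in wild type and 151.3 ± 5.64 in R206H (log2 -0.25, limma adjusted p = 0.0589). Ephx1, the microsomal epoxide hydrolase, had 150.6 ± 10.1 and 233.3 ± 49.2 TPM, in the other direction (log2 0.61, limma adjusted p = 0.0678). voom called both of these and no other gene of the list, against 8.68% of all genes. Aldh3b1, a relative of Aldh3a1, had 4.33 ± 0.816 and 7.42 ± 0.642 TPM (log2 0.67, limma adjusted p = 0.0664). The other 6 fixed genes, among them Cyp1a2 and the glutathione transferase genes Gsta1 and Gsta2, did not reach the filter.

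For NRF2 targets and regulators, a list that leaves out Nqo1, 0 of 24 tested genes were called by limma, while 12 had an unadjusted p under 0.05, against 26.1% of all genes tested. Of the 24 values 20 were negative and 4 positive, and the median was -0.20. Gsr, glutathione reductase, had 95.2 ± 10.2 TPM in wild type and 70.5 ± 3.88 in R206H (log2 -0.42, limma adjusted p = 0.0576). Mafk, a small MAF partner of NRF2, had 48 ± 2.94 and 33.7 ± 4.96 TPM (log2 -0.51, limma adjusted p = 0.0617), and the peroxiredoxin gene Prdx1 374.3 ± 12.3 and 308.1 ± 22.4 (log2 -0.28, limma adjusted p = 0.0668). voom called 7 of the 24 lower and 0 higher, against 8.68% of all genes in either direction. The NRF2 gene itself, Nfe2l2, was named after its value was seen: it had 76 ± 4.9 and 74.5 ± 3.71 TPM (log2 -0.03, limma adjusted p = 0.834). Summed over the list, the libraries had 11850, 10790 and 11850 TPM in wild type and 10670, 8988 and 9275 in R206H, so R206H library 2 was the lowest here as for Nqo1.

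Of genes that make or clear tryptophan-derived ligands, 0 of 9 tested were called by limma, 2 had an unadjusted p under 0.05, against 26.1% of all genes tested, and the median was -0.07. Tph1, a tryptophan hydroxylase, had 1.48 ± 0.0342 TPM in wild type and 0.465 ± 0.352 in R206H (log2 -0.79, limma adjusted p = 0.119) and was the 1 gene of the list that voom called, against 8.68% of all genes. It reached 1 TPM in the wild-type libraries alone, so the filter favoured a lower value in R206H. The monoamine oxidase genes Maoa and Maob had log2 values of -0.21 and 0.72 (limma adjusted p = 0.126 and 0.199). The kynurenine-forming dioxygenase genes Ido1, Ido2 and Tdo2, also named after their values were seen, stayed under the filter, with means of at most 0.591 TPM in either genotype.

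**Figure D4:**
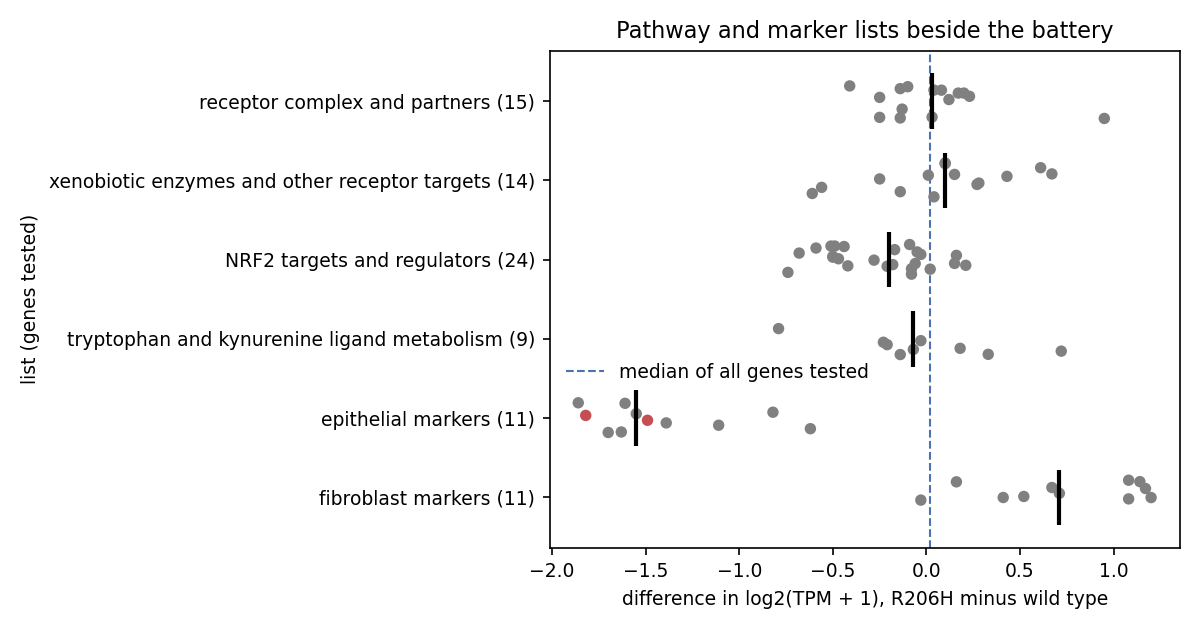
Differences in log2(TPM + 1), R206H minus wild type, of the tested genes in 4 pathway lists and 2 marker lists, red where the limma adjusted p was under 0.05, with the list median as a bar and the median of all genes as a dashed line. The NRF2 median is -0.20, and the epithelial and fibroblast marker medians are -1.55 and 0.71.

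Markers of 6 cell types were measured beside the battery. All 11 tested epithelial markers, of 16 fixed, had negative differences, with a median of -1.55. limma called 2 lower, Cldn3 and Epcam, against 0.79% of all genes tested. voom called 5 lower, against 8.68% of all genes in either direction. Epcam and Cldn7 reached 1 TPM in the wild-type libraries alone, so the filter favoured lower values in R206H for them. The summed level of the 16 was 553.5 to 655.7 TPM in wild type and 199.4 to 406.5 in R206H, highest of the R206H libraries in library 1. Cyp1a1, Cyp1b1 and Nqo1 were also highest there among R206H libraries, as were the mesothelial, macrophage and hepatocyte sums. The other members were not: Tiparp was highest in R206H library 2, and Ahr, Arnt, Ahrr and Aldh3a1 in R206H library 3. The fibroblast sum was lowest in R206H library 1, and the endothelial sum was highest in R206H library 3. There the endothelial marker Erg had 15.6 TPM, against 4.39 and 6.96 in R206H libraries 1 and 2. Egfl7 and Tek were also highest in R206H library 3, while Kdr, Cdh5, Emcn, Esam, Pecam1 and Tie1 were lowest in it. Of the 16 epithelial markers, none was at 0 in all libraries. Mesothelial markers, of which Krt19 is also in the epithelial list, summed to 386.7 to 472.4 TPM in wild type and 188.5 to 373.2 in R206H. Most of this sum was Krt19 and Msln, with wild-type means of 285.6 and 104 TPM. Of 6 tested, 1 was called lower by limma and by voom, Msln. The shares over all genes were 0.79% lower by limma and 8.68% in either direction by voom. For the other tested markers the groups overlapped: Krt19 (log2 -0.62), Upk1b (-0.50), Lrrn4 (-0.06), Wt1 (0.17) and Upk3b (0.28). Of the 11 fibroblast markers limma called 0 and voom 6 higher, against 8.68% of all genes called by voom in either direction. An unadjusted limma p under 0.05 was found for 8, against 26.1% of all genes tested. Endothelial markers summed to 25 to 49.4 and 23.6 to 31.9 TPM, macrophage markers to 35.2 to 40.8 and 32.7 to 63.1, and hepatocyte markers to 2.4 to 3.21 and 2.48 to 19.2, with none called among 7, 8 and 1 tested. Of these, 2, 2 and 0 had an unadjusted p under 0.05, against 26.1% of all genes tested, and voom called none. Hepatocyte markers Ahsg and Serpina1a were at 0 in every library. The hepatocyte sum of 19.2 was that of R206H library 1, where Afp had 9.29 TPM and Apoa2 7.64. Alb was at 0 in every wild-type library and at 1.46, 0.0896 and 0.225 TPM in R206H libraries 1, 2 and 3. Genes of the mitochondrial genome made up 4.16% to 4.57% of TPM in wild type and 3.43% to 3.85% in R206H. The part of cell composition in the battery's values was not tested, and in bulk RNA fewer cells of a type and less RNA per cell cannot be told apart.

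The genes most like Cyp1a1 by Pearson's r of log2(TPM + 1) over the 6 libraries were Dot1l (r = 0.998), Socs7 (0.996), Mcph1 (0.996), Hist1h2ac (0.994) and Cnot9 (0.994). All 5 were lower in R206H by mean, and Hist1h2ac was the 1 of them called (log2 -1.08, limma adjusted p = 0.0476). After the genotype means were taken off, the closest were Ppp1r3f (0.997), Socs7 (0.996), Rev1 (0.995), Rbm15 (0.992) and Plxnd1 (0.992). No other battery gene was among either 5. These values rest on 6 libraries in 2 genotypes and describe the pattern only.

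**Figure D5:**
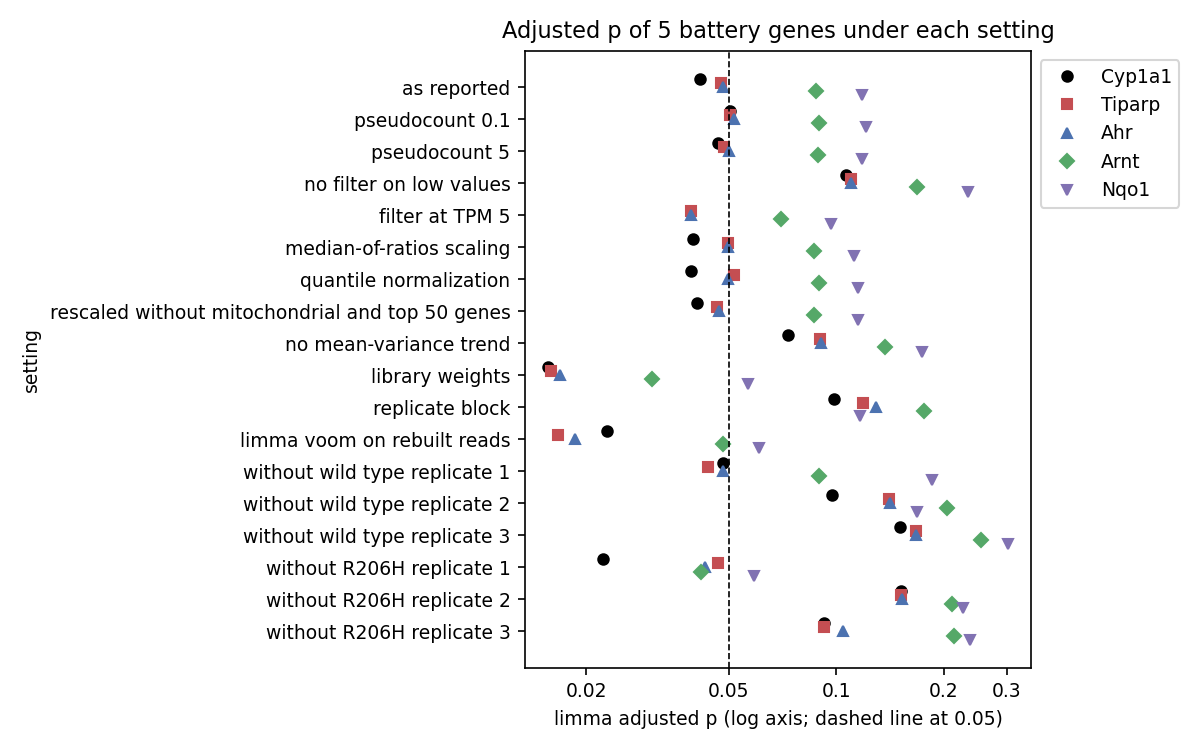
limma adjusted p (log axis) of Cyp1a1, Tiparp, Ahr, Arnt and Nqo1 under each processing setting, with 0.05 as a dashed line. Cyp1a1, Tiparp and Ahr lie close to the line as reported, at 0.0417, 0.0476 and 0.0483.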

How the data were processed

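The authors deposited a table of TPM values per Ensembl gene for 6 libraries, each summing to 1000000. Per the labels' protocols, total RNA was depleted of ribosomal RNA and sequenced as pairs of 150 bp reads. Per the submitters' processing notes, the tools were STAR, Trimmomatic, DESeq2, Subread and featureCounts, without roles or versions, and the genome is named as GRCm38 and mm10. Neither the annotation release nor the strand setting is given in the sources used here.

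Differences were tested with limma 3.58.1 in R 4.3.3 on log2(TPM + 1), for genes that reached 1 TPM in 3 libraries or more, using lmFit and then eBayes (trend on), two-sided, no covariate, Benjamini-Hochberg adjusted over all 14818 genes. Reads were estimated from TPM and exon lengths of GENCODE M21 (49056 identifiers matched, 259 did not): 92.2% to 92.7% of low non-zero values for genes under 5000 nt came within 0.05 of a whole read. Intervals on reads cover counting error only. The code was tested on simulated data. Python 3.11.15, pandas 2.3.3 and matplotlib 3.10.9 were used for tables and plots.

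The members, the 4 pathway and 6 marker lists, the alternatives and the naming rule were chosen with earlier results of these data known. The rule named all members, the 3 genes of each pathway list with the smallest unadjusted p, and the 5 genes most like Cyp1a1. A gene that the rule names is not reported here. Libraries with the same number correlated at 0.018, 0.06 and -0.028 in their deviations from the group means, so the numbers were not taken as pairs. A planned comparison of protein sequences was not made here.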

Additional observations from a re-analysis of the deposited data

How the results depend on the processing

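Of all genes tested, 303 were called as reported (186 higher, 117 lower). The count moved to 129 with a pseudocount of 0.1 (92 higher, 37 lower), 2 with no filter, 587 with a filter at TPM 5, 200 with quantile normalization, 27 without the mean-variance trend, 1906 with library weights and 1284 with limma voom. Leaving out 1 library at a time gave 0 to 722 genes, and 288 without wild-type library 1 (219 higher, 69 lower). With the replicate number as a block, 0 genes were called over all genes and 0 battery members, with 3301 genes at an unadjusted p under 0.05. The numbers are not known to pair the samples. Battery members called, 3 as reported, fell to 0 with a pseudocount of 0.1, with no filter and without the trend. They ranged from 0 to 4 when 1 library was left out, with 3 without wild-type library 1 and 4 without R206H library 1.

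No member changed direction under any alternative computed for it. Cyp1a1 was called in 8 of 16 alternatives (adjusted p 0.0156 to 0.152), and was not tested with the filter at TPM 5. Tiparp (0.016 to 0.167) and Ahr (0.0169 to 0.167) were called in 8 of 17 each. Arnt was called in 3 of 17. Nqo1, Cyp1b1 and Ahrr were called in none, with adjusted p of 0.0566 to 0.303, 0.25 to 0.914 and 0.237 to 0.997. Fits with a library left out rest on fewer samples. The cause of the other shifts was not tested. Scaling moved the median of all genes from 0.022 to between -0.008 and 0.017. Depth limits Cyp1a1 in R206H and Aldh3a1 in both genotypes, where the estimated reads numbered 24 in all for the former and 20 and 5 for the latter.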
